A study of Mus musculus with 8 samples.

Results

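The genes described here make, sense and move cholesterol. They are a fixed list of 30 genes: 8 enzymes that lead to mevalonate and the isoprenoid diphosphates, 11 enzymes that turn those into squalene and sterols, 5 regulators, 4 genes of transport and esterification, and 2 export pumps. The members were chosen with earlier results of these data known, so counts set against all genes describe the list and do not test it. Array probes were assigned to them by gene name or RefSeq accession, not by any measured value. All 30 were measured, among 14131 genes tested in all. Of their 42 probes, 40 passed the filter on dim probes, and the probe used for each gene was well above background in all 16 tumours, so the filter did not select among the members.

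Expression was measured in 16 mouse mammary tumours on 8 Agilent arrays, with a tumour in each of the 2 colours. The tumours came from the MMTV-PyMT model, in which a viral promoter active in mammary epithelium drives an oncogene. They grew orthotopically in wild-type FVB mice through 2 passages. RANK-Fc, a decoy that captures RANK ligand before it reaches its receptor, was injected into the abdomen at 10 mg/kg, 3 times a week. In passage 2 there were 3 tumours with RANK-Fc in both passages (neoadjuvant and adjuvant in the labels), 3 with earlier RANK-Fc alone (neoadjuvant, pre-RANK-Fc), 3 with current RANK-Fc alone (adjuvant, post-RANK-Fc) and 2 controls. In passage 1 there were 3 tumours with RANK-Fc and 2 controls. All groups share the oncogene and the FVB host. The codes were read as placing neoadjuvant RANK-Fc in passage 1, which the labels leave unstated, and they do not tie a passage 2 tumour to the passage 1 tumour it grew from. By its label each tumour came from its own animal.

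Cells build cholesterol from acetyl-CoA through mevalonate, farnesyl diphosphate, squalene and lanosterol. When sterol in the endoplasmic reticulum is scarce, Scap carries the transcription factors encoded by Srebf1 and Srebf2 to the Golgi, where they are cut and released to switch on the synthesis genes. Insig1 and Insig2 hold Scap back when sterol is plentiful, and Insig1 is itself a target of the same factors. Excess cholesterol is esterified by Soat1 or leaves the cell through Abca1 and Abcg1, which are switched on by liver X receptors and are prominent in macrophages.

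The tissue label was checked against markers. The mean log2 intensity of 7 epithelial markers, among them Epcam and Krt8, lay between 12.21 and 12.70 over the 16 tumours. Markers of other cell types were uneven between tumours. Means ranged from 10.24 to 11.56 for 9 macrophage markers and from 10.02 to 12.95 for 7 fibroblast markers. For 7 adipocyte markers they ranged from 7.66 to 11.52. Current RANK-Fc alone replicate 3 had the highest fibroblast mean, and earlier RANK-Fc alone replicate 1 had the highest mean of 2 skeletal muscle markers, at 9.03 against 6.32 to 8.01 in the other tumours. In bulk tumour RNA, fewer cells of a type and less RNA per cell cannot be told apart.

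The promoters of the members, of all roles together, were looked at for what they share beyond pathway. Of the 30 members, 24 had a promoter window in the RefSeq table (GRCm38.p6), 250 bases before to 50 bases after the start. These include regulators, transport genes and Abca1 besides synthesis enzymes, and the synthesis enzymes Fdps, Fdft1 and Sqle had no window. The CCAAT box (CCAAT, either strand), bound by NF-Y, was present in 22 of the 32 windows of these members, against 37.41% of all 32851 windows. The GC box (GGGCGG, either strand), bound by Sp1, was present in 26 of the 32, against 35.66% of windows. The core of a sterol regulatory element (CACNCCAC, either strand) was present in 3 of the 32, 1 each of Acat2, Hmgcs1 and Insig1, against 6.24% of windows. Only this exact pattern was searched, so a window without a match can still hold another form of the element. Some members have several windows, which can overlap, and a match describes letters in the window, not a bound site. The background holds every window, whether or not its gene was expressed in these tumours, while all members were. The shares are therefore not like for like and do not mark a trait of these genes. The 250 bases before the start are shown for Cyp51, Insig1 and Tm7sf2, the members with the smallest p for current RANK-Fc, and for Hmgcs1, which forms HMG-CoA and whose window held both motifs. They are written 5′ to 3′ on the gene's own strand, with matches to CACNCCAC or CCAAT in capitals.
Cyp51: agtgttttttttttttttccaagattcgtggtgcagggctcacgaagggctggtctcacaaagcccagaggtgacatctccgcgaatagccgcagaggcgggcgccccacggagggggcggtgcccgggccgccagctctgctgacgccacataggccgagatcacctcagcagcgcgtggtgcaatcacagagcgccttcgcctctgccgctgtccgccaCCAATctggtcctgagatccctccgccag
Insig1: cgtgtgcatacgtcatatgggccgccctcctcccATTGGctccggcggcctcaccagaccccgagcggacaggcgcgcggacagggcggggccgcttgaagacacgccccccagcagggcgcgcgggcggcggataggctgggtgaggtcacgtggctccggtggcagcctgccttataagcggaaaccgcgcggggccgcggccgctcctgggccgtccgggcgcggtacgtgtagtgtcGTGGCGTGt
Tm7sf2: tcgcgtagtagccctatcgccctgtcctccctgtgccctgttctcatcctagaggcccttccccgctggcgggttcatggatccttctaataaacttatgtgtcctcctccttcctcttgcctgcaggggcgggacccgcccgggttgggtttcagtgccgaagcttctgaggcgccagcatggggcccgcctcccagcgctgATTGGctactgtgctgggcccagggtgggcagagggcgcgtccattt
Hmgcs1: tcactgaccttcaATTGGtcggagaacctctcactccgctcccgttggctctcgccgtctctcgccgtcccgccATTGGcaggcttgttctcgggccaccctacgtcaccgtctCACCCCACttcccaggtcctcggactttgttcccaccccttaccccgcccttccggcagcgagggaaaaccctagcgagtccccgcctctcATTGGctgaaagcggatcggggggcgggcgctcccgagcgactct
These stretches lie at chr5:4104698-4104947 (minus strand) for Cyp51, chr5:28071162-28071411 (plus strand) for Insig1, chr19:6067851-6068100 (minus strand) for Tm7sf2 and chr13:119690101-119690350 (plus strand) for Hmgcs1. Cyp51 and Tm7sf2 had 1 CCAAT match each, beginning 29 and 47 bases before the start. Insig1 had 1 match to CACNCCAC at 9 bases before the start and 1 to CCAAT at 216 bases. Hmgcs1 had 1 match to CACNCCAC at 136 bases before the start, between CCAAT matches at 237, 176 and 45 bases.

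What RANK-Fc given during the current passage did to these genes was asked first. Its difference was averaged over 3 backgrounds: passage 1, passage 2 without earlier RANK-Fc, and passage 2 after earlier RANK-Fc. Synthesis genes lay higher with current RANK-Fc. Of the 19 synthesis enzymes, 17 had a positive difference and the median was 0.25 on the log2 scale, against a median of 0.0045 over all genes tested, of which 52% were positive. No member passed the threshold, an adjusted p under 0.05 in the limma fit across all genes, and neither did any other gene, a background of 0%. At an unadjusted p under 0.05, 13 of the 30 members were higher and 0 lower, against 3.33% higher and 3.13% lower of all genes. The 13 were 12 synthesis enzymes and Insig1. Most synthesis enzymes varied together over the tumours, so this is not a count of independent genes.

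**Figure D1:**
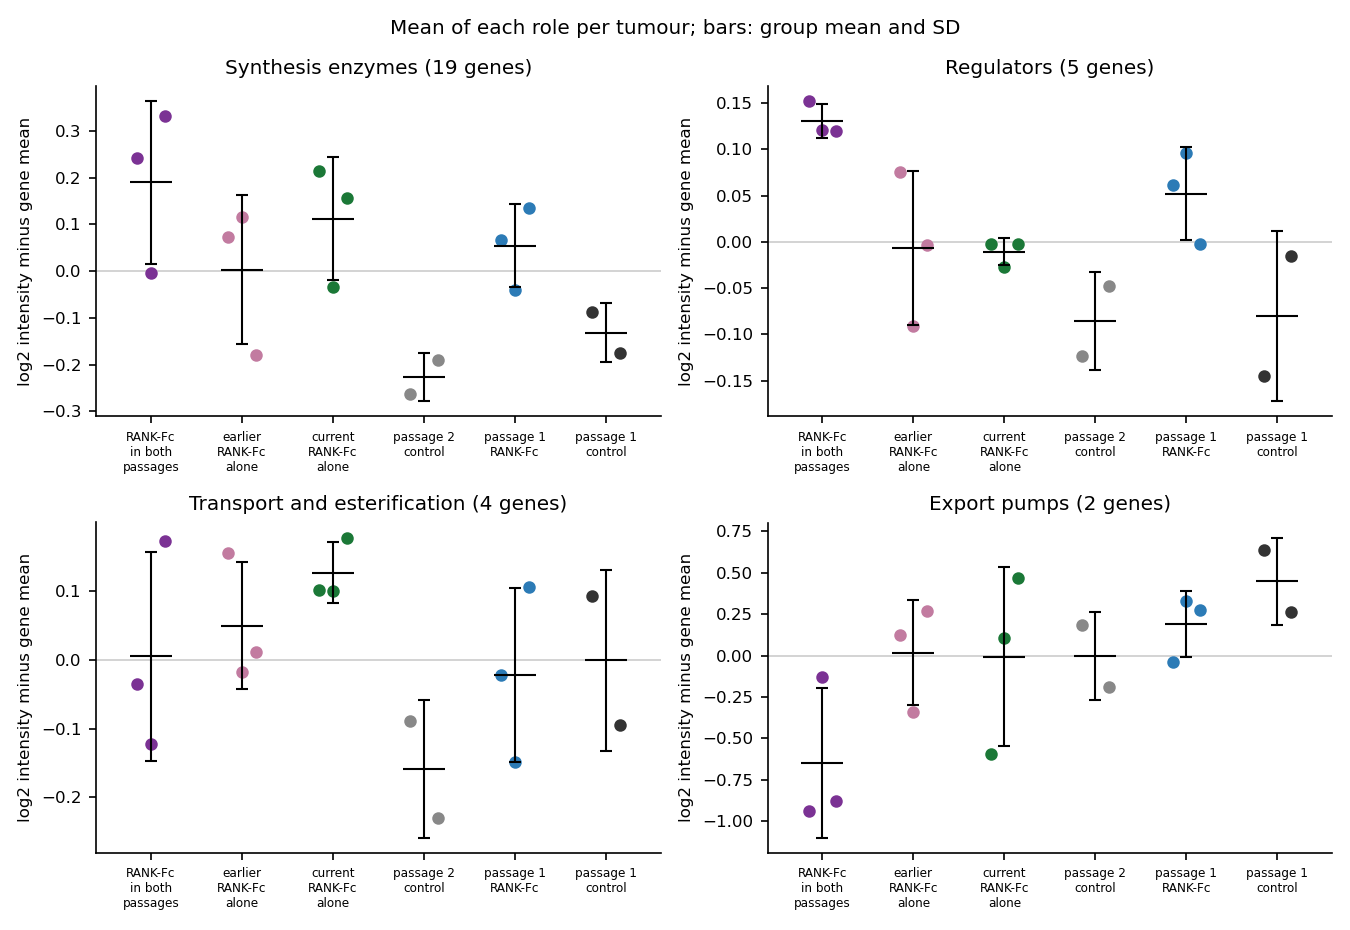
Mean deviation of log2 intensity from each gene's own mean (vertical axis) in each tumour (points), for 4 roles, by group (horizontal axis). Bars give the group mean and SD. For the 19 synthesis enzymes both passage 2 controls lie at -0.26 and -0.19, below every other tumour of the 16.

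The mean of the 19 synthesis enzymes per tumour, taken as the deviation of log2 intensity from each gene's mean, was compared next. It was 0.24, -0.0049 and 0.33 with RANK-Fc in both passages, 0.07, 0.12 and -0.18 with earlier RANK-Fc alone, 0.21, -0.03 and 0.16 with current RANK-Fc alone, and -0.26 and -0.19 in passage 2 controls. In passage 1 it was 0.07, -0.04 and 0.14 with RANK-Fc, against -0.09 and -0.18 in controls. Tumours with current RANK-Fc lay above the controls of their passage without overlap, whereas in passage 2 after earlier RANK-Fc the groups overlapped.

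Cyp51, the lanosterol demethylase, had the smallest p of the members. Its log2 intensity was 8.14, 7.89 and 8.36 with RANK-Fc in both passages, against 7.65, 7.71 and 7.51 with earlier RANK-Fc alone. It was 8.10, 7.79 and 7.95 with current RANK-Fc alone, against 7.44 in both passage 2 controls. In passage 1 it was 7.69, 7.76 and 7.70 with RANK-Fc, against 7.54 and 7.48 in controls. The groups did not overlap in any of the 3 backgrounds, and the smallest gaps were in passage 1 and after earlier RANK-Fc. The mean log2 difference was 0.40 ± 0.07 (SE), or 1.32-fold, with an unadjusted p of 5.37e-05 and an adjusted p of 0.219 in limma.

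Insig1, the sterol-sensing brake that is itself switched on by the synthesis factors, had the largest difference of the 30. Its log2 intensity was 8.76, 8.03 and 8.88 with RANK-Fc in both passages, against 8.10, 7.90 and 7.76 with earlier RANK-Fc alone. It was 8.12, 8.06 and 8.17 with current RANK-Fc alone, against 7.70 and 7.69 in passage 2 controls. In passage 1 it was 8.03, 8.28 and 8.21 with RANK-Fc, against 7.55 and 7.75 in controls. The groups overlapped only after earlier RANK-Fc, through replicate 2 of RANK-Fc in both passages. The mean log2 difference was 0.54 ± 0.10 (SE), or 1.45-fold, with an adjusted p of 0.354 in limma.

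Without that replicate, Cyp51 (0.43, adjusted p = 0.048) and Insig1 (0.60, adjusted p = 0.013) passed the limma test. That was 1 of 16 fits that each left out 1 tumour, and neither gene passed in any other of them. Neither passed in 11 other settings, with adjusted p-values in limma from 0.13 to 0.62 for Cyp51 and from 0.20 to 0.63 for Insig1. The share of all genes called without that replicate is not given here. Over the fits that left out 1 tumour each, the differences ran from 0.35 to 0.43 for Cyp51 and from 0.48 to 0.60 for Insig1, and the median over synthesis enzymes from 0.22 to 0.29. The same fits gave 7 to 13 synthesis enzymes with an unadjusted p under 0.05.

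**Figure D2:**
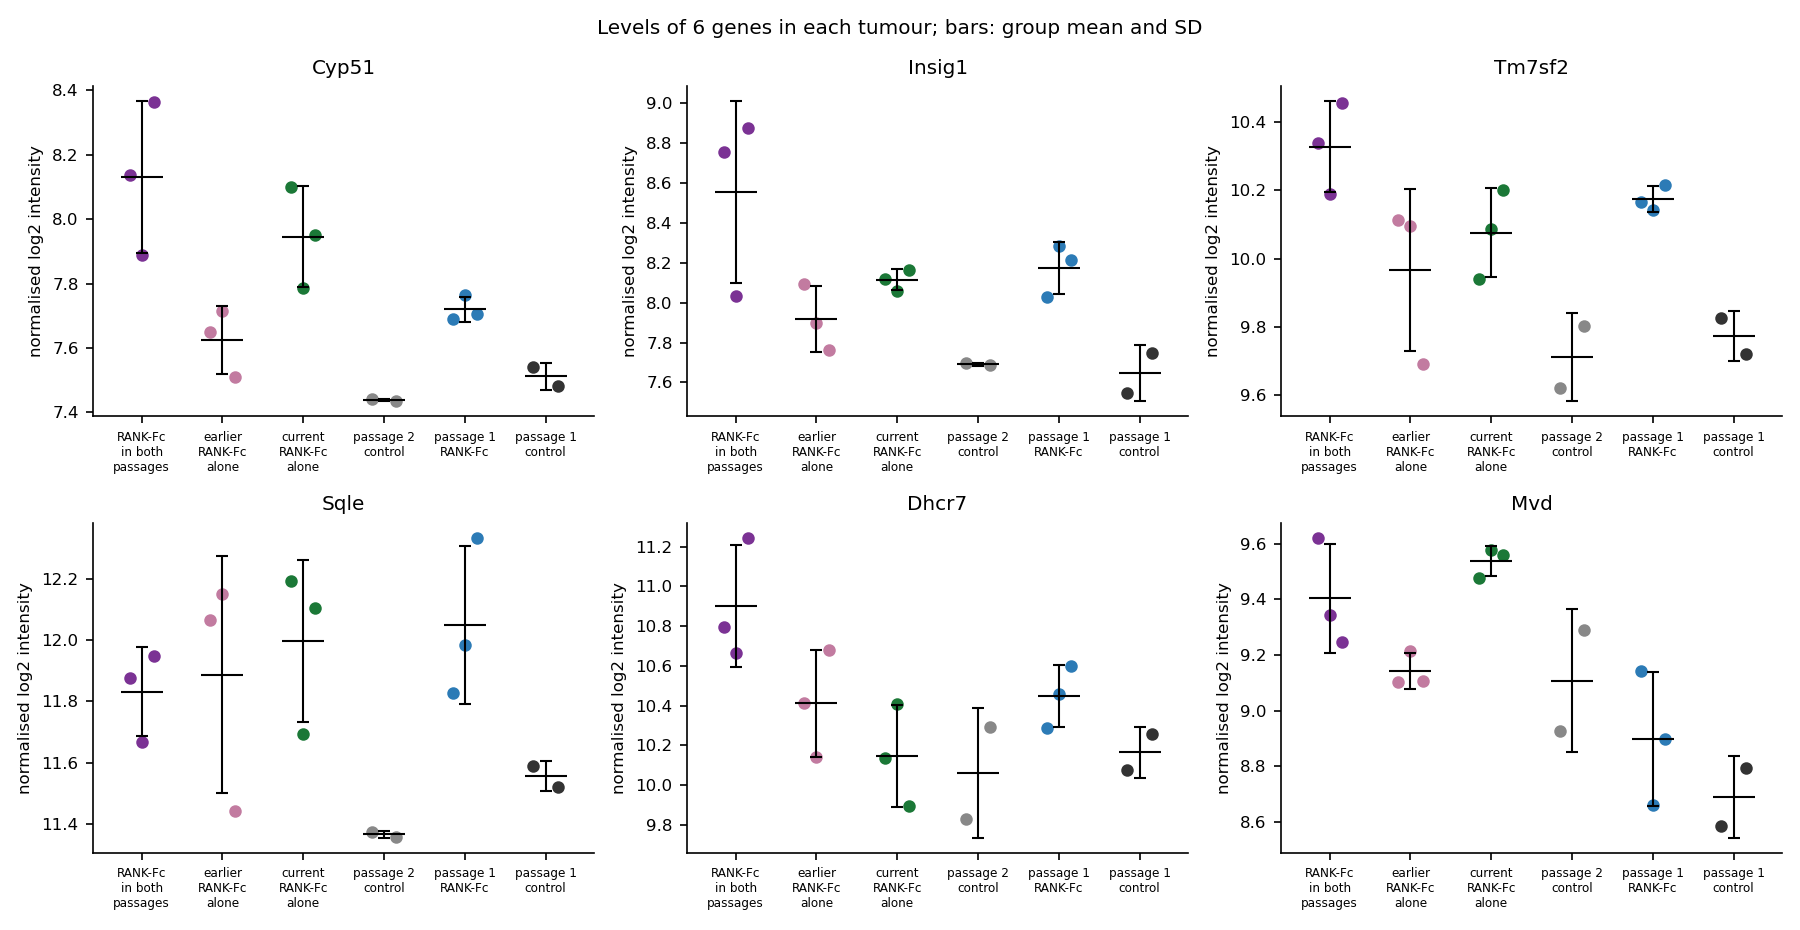
Normalised log2 intensity (vertical axis) of Cyp51, Insig1, Tm7sf2, Sqle, Dhcr7 and Mvd in each tumour (points), by group (horizontal axis), with the group mean and SD as bars. For Cyp51 the 9 tumours with current RANK-Fc lie between 7.69 and 8.36 and the 7 others between 7.44 and 7.71.

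Tm7sf2, a sterol reductase that acts directly after Cyp51, was the other member whose groups did not overlap in any background. Its log2 intensity was 10.34, 10.19 and 10.46 with RANK-Fc in both passages, against 10.11, 10.10 and 9.69 with earlier RANK-Fc alone. It was 9.94, 10.09 and 10.20 with current RANK-Fc alone, against 9.62 and 9.80 in passage 2 controls, and 10.17, 10.14 and 10.22 with RANK-Fc in passage 1, against 9.83 and 9.72 in controls. The mean log2 difference was 0.38 ± 0.08 (SE, adjusted p = 0.433, limma). Of 14117 genes without missing values, 16 were higher in all 3 backgrounds without overlap, 0.113%, and 10 were lower, 0.0708%. Among the members these were 2 higher and 0 lower.

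Sqle, the squalene epoxidase that makes the first oxygenated sterol precursor, was higher in 2 backgrounds. Its log2 intensity was 12.19, 11.69 and 12.11 with current RANK-Fc alone, against 11.37 and 11.36 in passage 2 controls, and 11.83, 11.99 and 12.34 with RANK-Fc in passage 1, against 11.59 and 11.52 in controls. After earlier RANK-Fc it was 11.88, 11.67 and 11.95 with RANK-Fc in both passages, against 12.07, 12.15 and 11.44 with earlier RANK-Fc alone, and the groups overlapped. The mean log2 difference was 0.34 ± 0.10 (SE, adjusted p = 0.715, limma). The test of a difference of the current RANK-Fc effect with and without earlier RANK-Fc gave -0.63 ± 0.23 (SE) for Sqle, with an unadjusted p of 0.0171 and an adjusted p of 0.674.

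The enzymes of the mevalonate branch lay mostly on the same side. In the mevalonate branch 7 of 8 differences were positive and 5 had an unadjusted p under 0.05. The largest was that of Idi1, which isomerises isopentenyl diphosphate, at 0.41 ± 0.15 (SE), followed by Fdps, which makes farnesyl diphosphate, at 0.37 ± 0.13. The kinases Mvk and Pmvk differed by 0.34 ± 0.12 and 0.25 ± 0.11, and the decarboxylase Mvd by 0.30 ± 0.09. Hmgcs1, which forms HMG-CoA, differed by 0.22 ± 0.12, and Acat2, which joins acetyl-CoA units, by 0.14 ± 0.09. Ggps1 makes geranylgeranyl diphosphate for protein prenylation, off the route to sterol, and had a negative difference of -0.06 ± 0.07, with a 95% interval from -0.21 to 0.09.

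In the sterol branch 10 of 11 differences were positive and 7 had an unadjusted p under 0.05. Besides Cyp51, Tm7sf2 and Sqle these were Lss, the lanosterol synthase (0.30 ± 0.10, SE), Dhcr7, which closes one route to cholesterol (0.28 ± 0.11), Fdft1, the squalene synthase (0.22 ± 0.09), and Nsdhl, a sterol dehydrogenase (0.21 ± 0.07). Sc5d, a desaturase, and Hsd17b7, a ketosterol reductase, lay at 0.13 ± 0.13 and 0.11 ± 0.08. Ebp, a sterol isomerase, lay at 0.02 ± 0.09 with a 95% interval from -0.17 to 0.21. Lbr, the lamin B receptor, which also carries sterol reductase activity, lay at -0.0043 ± 0.08, with a 95% interval from -0.18 to 0.17. Tm7sf2 and Lbr catalyse the same reduction, and their differences were not tested against each other.

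**Figure D3:**
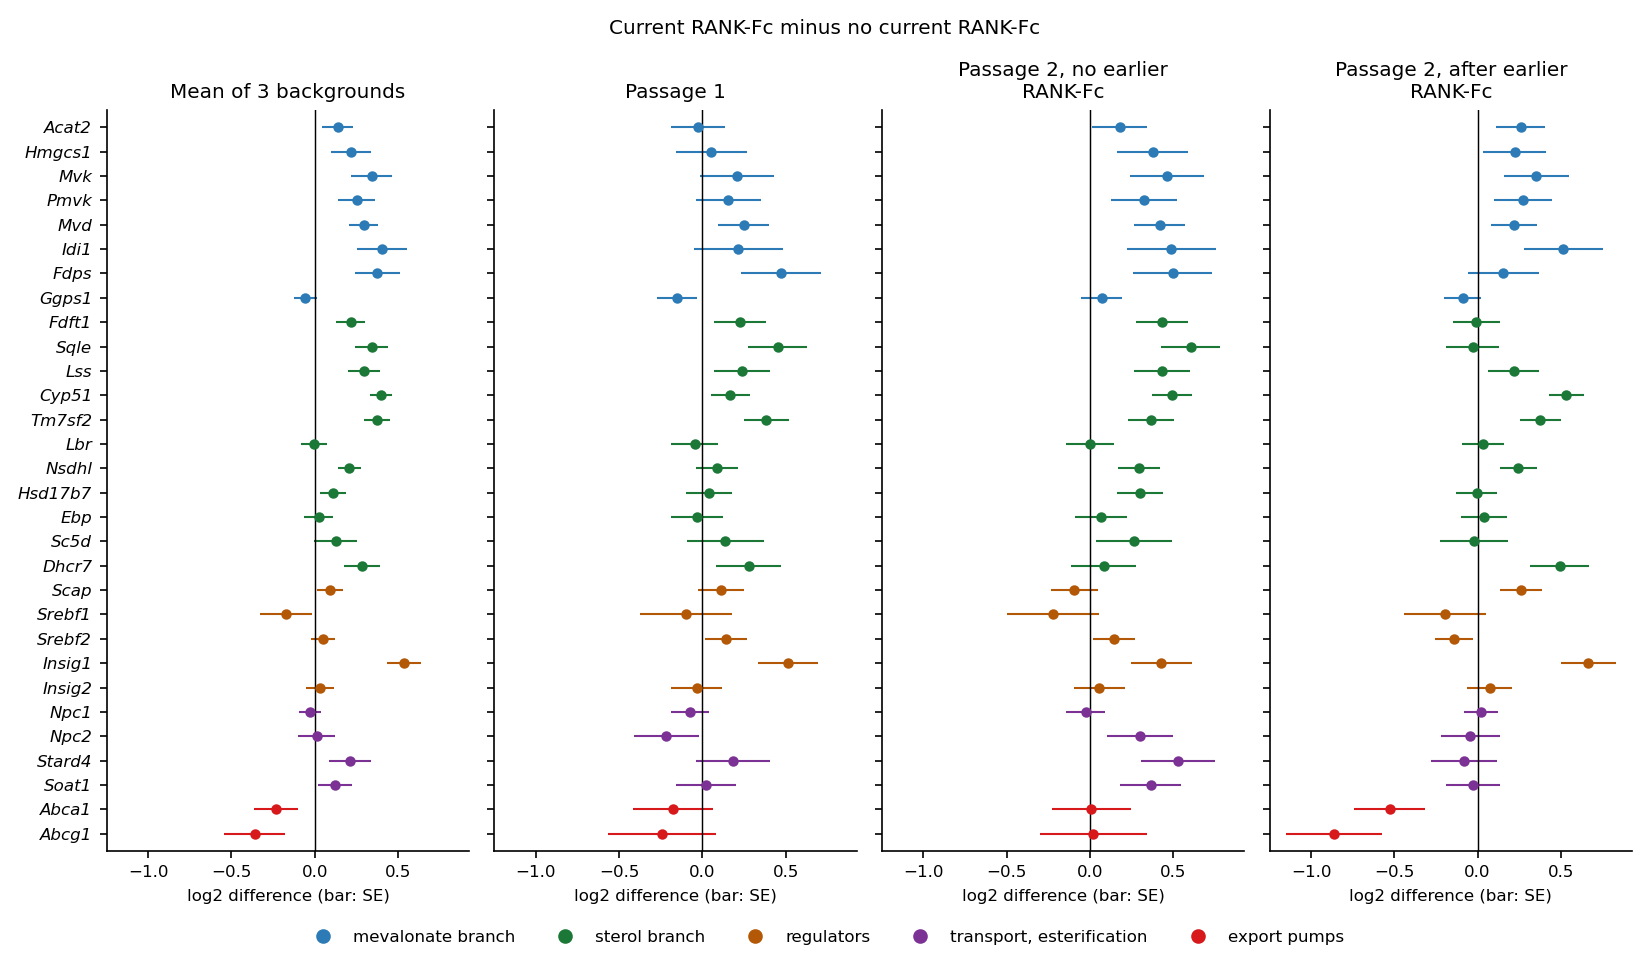
Log2 difference of current RANK-Fc minus no current RANK-Fc (horizontal axis) for the 30 members (rows), as the mean of 3 backgrounds and in each of them. Points are limma estimates, bars their SE, and colours the role. Most synthesis enzymes lie right of 0 in the mean, with Ggps1 at -0.06 and Lbr at -0.0043 as the exceptions, and both export pumps lie left of it.

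The regulators and transport genes did not share one side. Scap, the escort, differed by 0.09 ± 0.08 (SE), and Srebf2, whose product is the main activator of synthesis genes, by 0.05 ± 0.07. Srebf1, the factor tied more to fatty acid genes, differed by -0.17 ± 0.16, and Insig2, the second brake, by 0.03 ± 0.09. Of these 4 none had an unadjusted p under 0.05. Stard4, a cytosolic sterol carrier, differed by 0.21 ± 0.13, and Soat1, which esterifies cholesterol, by 0.12 ± 0.10. Npc1 and Npc2, which pass cholesterol out of lysosomes, differed by -0.03 ± 0.07 and 0.01 ± 0.11. The export pumps Abca1 and Abcg1 differed by -0.23 ± 0.13 and -0.36 ± 0.18. None of these 6 had an unadjusted p under 0.05 either.

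The backgrounds were then taken one at a time. In passage 2 without earlier RANK-Fc, 19 of 19 synthesis enzymes had a positive difference, with a median of 0.37, against 0.02 over all genes, of which 55.2% were positive. Of the 30 members, 13 were higher without overlap between 3 treated and 2 control tumours and 0 were lower, against 7.57% and 5.62% of all genes. In passage 1, 15 of 19 synthesis enzymes were positive with a median of 0.17, against 45.8% positive of all genes, and 8 members were higher and 2 lower without overlap, against 7.63% and 9.36% of genes. After earlier RANK-Fc, 14 of 19 were positive with a median of 0.22, against 50.9% of all genes. There 3 members (Mvd, Cyp51 and Tm7sf2) were higher and 2 (Srebf2 and Abcg1) lower without overlap, against 4.36% and 5.31% of genes.

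No member passed the threshold in any single background, where limma called 0 genes in each, 0%. At an unadjusted p under 0.05, 3 members were higher in passage 1, 10 in passage 2 without earlier RANK-Fc and 5 after it, against 0.686%, 2.52% and 4.45% of genes. The members lower at that p were 0, 0 and 2, against 0.814%, 1.3% and 5.28% of genes. For each of the 30 members the effect of current RANK-Fc was tested for a difference between passages and for a difference with and without earlier RANK-Fc. None passed, with a smallest adjusted p of 0.9997 for the first and 0.674 for the second, and 0 and 2 members at an unadjusted p under 0.05. Both tests called 0 genes, 0%. At the unadjusted p, 1.34% of all genes were higher and 0.389% lower in the first, and 2.14% and 4.38% in the second, so the members' share lay near the background. The 2 were Sqle, given above, and Fdft1 at -0.44 ± 0.20 (SE).

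Milk protein genes were measured beside them. The mean log2 intensity of 5 of them was 14.93, 13.61 and 14.39 with RANK-Fc in both passages, against 11.66, 13.05 and 13.13 with earlier RANK-Fc alone. It was 14.32, 15.14 and 15.89 with current RANK-Fc alone, against 13.93 and 13.90 in passage 2 controls, and 13.03, 10.98 and 13.43 with RANK-Fc in passage 1, against 12.08 and 11.63 in controls. Over the 16 tumours the synthesis mean and the milk mean had a Pearson r of 0.38 (permutation p = 0.145) and a Spearman rho of 0.41 (permutation p = 0.121). The adjusted p-values were 0.389 and 0.475 over 55 relations, and r was 0.33 without the 2 tumours farthest from the median and 0.27 within the 11 tumours of passage 2. The part of milk secretion in the difference was not tested. The permutations shuffled all 16 tumours freely, across groups and across tumours that share an array. Their p-values therefore treat the tumours as exchangeable, which the design does not ensure. The epithelial mean had an r of 0.32 with the synthesis mean (permutation p = 0.222), with rho 0.36 (permutation p = 0.174). The mean of 5 proliferation genes had an r of 0.42 (permutation p = 0.102), with rho 0.36 (permutation p = 0.17). The macrophage mean had an r of -0.39 (permutation p = 0.141) with the synthesis mean, and a rho of -0.47 (permutation p = 0.0673). The adjusted p-values were 0.389 and 0.394. That r was -0.68 without the 2 farthest tumours and -0.39 within passage 2. The part of macrophage content in the synthesis difference was not tested.

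RANK-Fc in both passages against passage 2 control gave the largest median difference of the synthesis genes among the comparisons made. All 19 synthesis enzymes were positive, with a median log2 difference of 0.43, against 0.0037 over all genes, of which 50.8% were positive. At an unadjusted p under 0.05, 12 members were higher and 1 lower, against 5.63% and 3.16% of genes. Of the 19, 12 were higher without overlap between 3 and 2 tumours, and over the 30 members 15 were higher and 0 lower, against 11.3% and 8.59% of genes. The test called 10 genes, 0.0708%, and none was a member. Cyp51 came closest at 0.72 ± 0.12 (SE), or 1.65-fold, with an adjusted p of 0.0579 in limma. Without replicate 2 of RANK-Fc in both passages, Cyp51 and Insig1 passed, and with the intraspot correlation left uncorrected Cyp51 alone did. The share of all genes called in those fits is not given here, so they do not single out these members.

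Several members differed there by over 0.7 on the log2 scale. Insig1 differed by 0.89 ± 0.19 (SE, adjusted p = 0.153, limma), Dhcr7 by 0.85 ± 0.20 (0.193), Idi1 by 0.79 ± 0.28 (0.419) and Mvk by 0.77 ± 0.23 (0.299). Mvk was at 10.45, 10.03 and 11.13 with RANK-Fc in both passages, against 9.93 and 9.73 in controls, and Idi1 at 11.70, 11.28 and 12.26, against 10.94 and 11.22. In both genes the 3 treated tumours were above both controls and replicate 2 stood nearest to them. Stard4 differed by 0.63 ± 0.23 (adjusted p = 0.440), but its second probe gave 0.12. Srebf1 went the other way, at -0.34 ± 0.29 (adjusted p = 0.773), with 9.93, 10.48 and 8.996 in treated tumours, against 9.81 and 10.33 in controls, an overlap. Current RANK-Fc alone and RANK-Fc in both passages were set against the same 2 control tumours.

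Earlier RANK-Fc was followed next, as the mean of its difference in passage 2 tumours with and without current RANK-Fc. Synthesis genes lay higher in this mean, 18 of 19 being positive. Their median was 0.16 against -0.0019 over all genes, of which 49.5% were positive. The synthesis mean per tumour averaged 0.19 with RANK-Fc in both passages, against 0.11 with current RANK-Fc alone, and those tumours overlapped. It averaged 0.0032 with earlier RANK-Fc alone, against -0.23 in the 2 passage 2 controls, the lowest of all tumours. These controls also enter the mean of current RANK-Fc. The test called 49 genes, 39 higher and 10 lower, 0.347% of all, and none was a member. At an unadjusted p under 0.05, 7 members were higher and 1 lower, against 8.49% and 7.06% of genes. Of the 7, 5 were synthesis enzymes, and the fits that left out 1 tumour each gave 2 to 7, with 2 without earlier RANK-Fc alone replicate 2. Counts of 3 came without replicates 1 or 3 of RANK-Fc in both passages, earlier RANK-Fc alone replicate 1 or passage 2 control replicate 2. Median centring, in place of loess and Aquantile, moved the median of all genes to 0.15 and left 19 of 19 positive with a median of 0.34.

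Dhcr7 had the smallest p of the members. Its log2 intensity was 10.79, 10.66 and 11.25 with RANK-Fc in both passages, against 10.14, 10.41 and 9.89 with current RANK-Fc alone. It was 10.41, 10.14 and 10.68 with earlier RANK-Fc alone, against 9.83 and 10.29 in passage 2 controls, and those groups overlapped. The mean log2 difference was 0.56 ± 0.14 (SE), or 1.48-fold, with an adjusted p of 0.101 in limma. Abca1 was next, at -0.55 ± 0.17 (adjusted p = 0.161), then Tm7sf2 at 0.29 ± 0.10 (0.191) and Fdft1 at 0.33 ± 0.11 (0.192). Immune markers lay lower in the same comparison. All 9 measured macrophage markers were negative with a median of -0.58, 6 of them at an unadjusted p under 0.05, and all 5 measured T cell markers with a median of -0.62, 3 of them at that p. None passed the adjusted threshold, and their part in the Abca1 difference was not tested.

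Fdft1 was at 9.50, 9.88 and 9.44 with RANK-Fc in both passages, against 9.56, 9.33 and 9.75 with current RANK-Fc alone, an overlap. It was at 9.80, 9.73 and 9.31 with earlier RANK-Fc alone, against 9.10 and 9.05 in passage 2 controls, without overlap. Earlier RANK-Fc alone against passage 2 control left 11 members higher and 0 lower without overlap, against 12.4% and 9.86% of genes. The largest of these differences was that of Stard4, at 0.71 ± 0.22 (SE, adjusted p = 0.366, limma), with 9.69, 9.29 and 8.93 against 8.65 and 8.49. Sqle and Fdft1 followed at 0.56 ± 0.18 and 0.55 ± 0.16. In that comparison 26 of the 30 members were positive, against 49.9% of genes, and 4 were higher and 0 lower at an unadjusted p under 0.05, against 5.21% and 2.43%. It called 1 gene, 0.00708%, which was not a member. It uses the same 2 controls as the comparisons above. The second probe of Stard4 gave 0.08, beside 0.40 for the probe used, in the mean of earlier RANK-Fc.

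**Figure D4:**
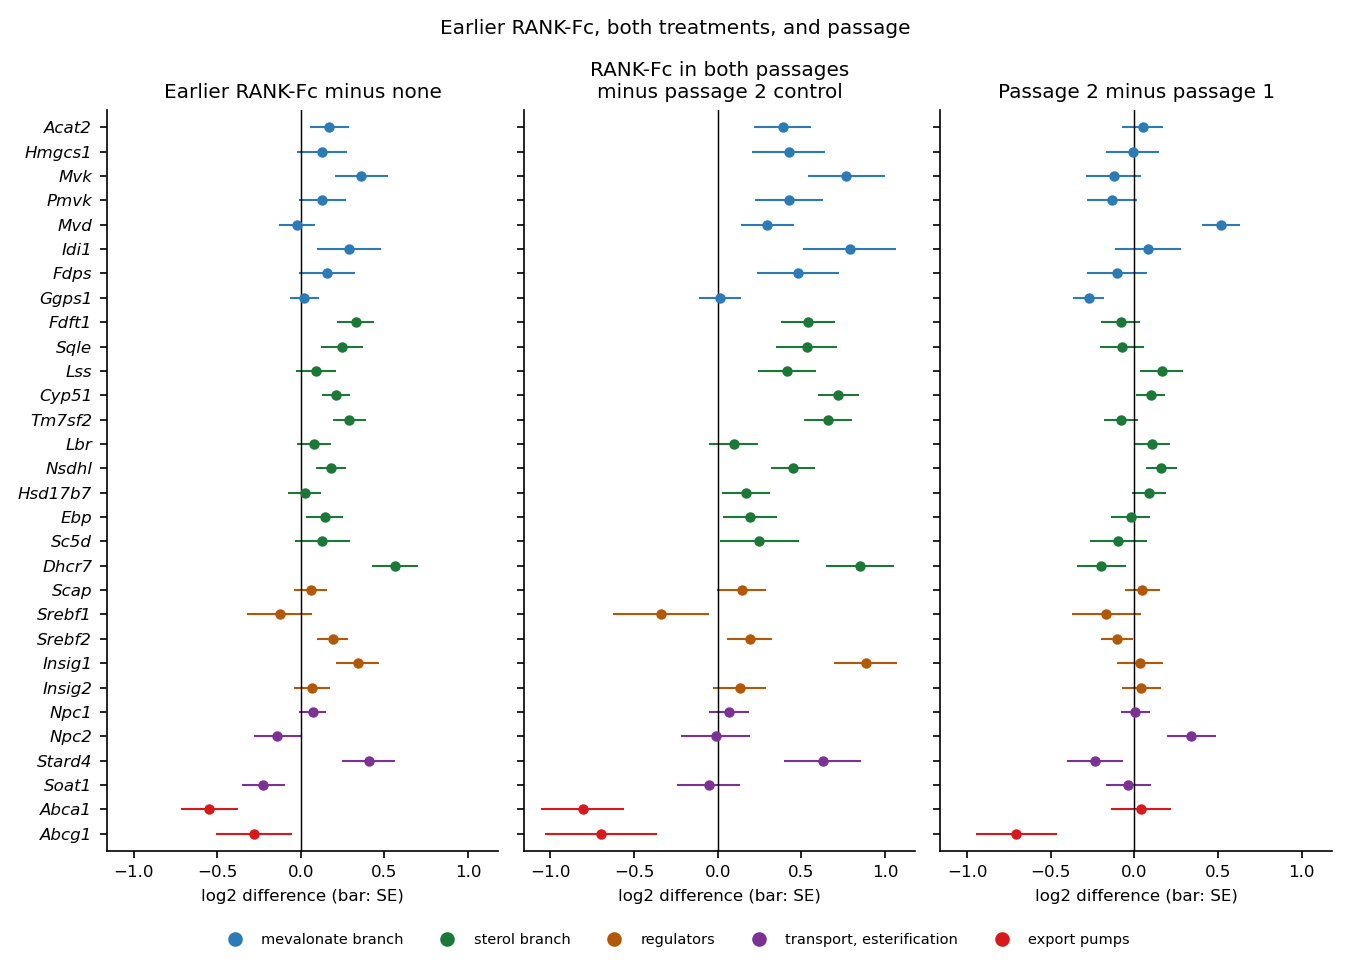
Log2 difference (horizontal axis) of the 30 members (rows) for earlier RANK-Fc minus none, for RANK-Fc in both passages minus passage 2 control, and for passage 2 minus passage 1, with limma SE as bars and roles as colours. All 19 synthesis enzymes lie right of 0 in the middle panel, and Mvd lies at 0.52 in the last.

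The export pumps had their lowest mean levels with RANK-Fc in both passages. Abca1, which loads cholesterol onto lipid-poor apolipoproteins, was at 8.65, 9.48 and 8.58 with RANK-Fc in both passages, 9.38, 8.95 and 9.81 with earlier RANK-Fc alone, 9.20, 9.63 and 9.91 with current RANK-Fc alone, and 9.74 and 9.41 in passage 2 controls. Abcg1, which passes cholesterol to mature lipoproteins, was at 8.85, 9.65 and 9.05 with RANK-Fc in both passages, 10.24, 9.75 and 10.10 with earlier RANK-Fc alone, 8.999, 9.96 and 10.40 with current RANK-Fc alone, and 10.02 and 9.60 in passage 2 controls. In both genes replicates 1 and 3 of RANK-Fc in both passages were low and replicate 2 lay among the controls.

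Against passage 2 control, RANK-Fc in both passages differed by -0.81 ± 0.25 (SE) in Abca1 and -0.70 ± 0.33 in Abcg1, with adjusted p-values of 0.315 and 0.574 in limma. Against earlier RANK-Fc alone it differed by -0.53 ± 0.21 and -0.86 ± 0.29, with adjusted p-values of 0.441 and 0.338. In passage 2 without earlier RANK-Fc the differences with current RANK-Fc were 0.0078 ± 0.24 and 0.02 ± 0.32, with 95% intervals from -0.51 to 0.53 and from -0.68 to 0.72.

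Macrophage markers lay lower beside the pumps with RANK-Fc in both passages, but not in every comparison. Their mean log2 intensity was 10.34, 10.47 and 10.24 with RANK-Fc in both passages, against 11.04 and 10.63 in passage 2 controls, without overlap. All 9 measured macrophage markers of 10 listed were lower in that comparison, with a median of -0.58. Of these 3 had an unadjusted p under 0.05, and 0 passed the adjusted one. The tenth, Cd163, was well above background in 0 tumours. Against earlier RANK-Fc alone, RANK-Fc in both passages also had all 9 lower, with a median of -0.435. With current RANK-Fc alone against passage 2 control, all 9 were higher, with a median of 0.44 and 0 at an unadjusted p under 0.05. There Abca1 and Abcg1 differed by 0.0078 and 0.02. Over the 16 tumours, Abca1 and the macrophage mean had a Pearson r of 0.78 (permutation p = 0.00063, adjusted p = 0.0346 over 55 relations). Spearman's rho was 0.77 (permutation p = 0.00084, adjusted p = 0.0231). Without the 2 tumours farthest from the median of the macrophage mean r was 0.81, and within passage 2 it was 0.78 over 11 tumours. Abca1 also ran against the proliferation mean, with a rho of -0.73 (permutation p = 0.00181, adjusted p = 0.0332) and an r of -0.54 (permutation p = 0.0305, adjusted p = 0.203). That r was -0.61 without the 2 farthest tumours and -0.65 within passage 2. These permutations too ignored groups and shared arrays, so their p-values describe the relation and are no test over independent tumours. The part of macrophage content and of proliferation in the pumps' differences was not tested.

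Abcg1 had an r of 0.65 with the macrophage mean (permutation p = 0.00649, adjusted p = 0.0714) and a rho of 0.65 (permutation p = 0.00754, adjusted p = 0.0829). Its r with the fibroblast mean was 0.70 (permutation p = 0.00285, adjusted p = 0.055) and its rho 0.79 (permutation p = 0.00053, adjusted p = 0.0231). Without the 2 farthest tumours these r were 0.80 and 0.75, and within passage 2 they were 0.79 and 0.61. Passage 1 held 5 tumours, too few for a value of its own. The limit on the permutation p-values given above holds here too.

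**Figure D5:**
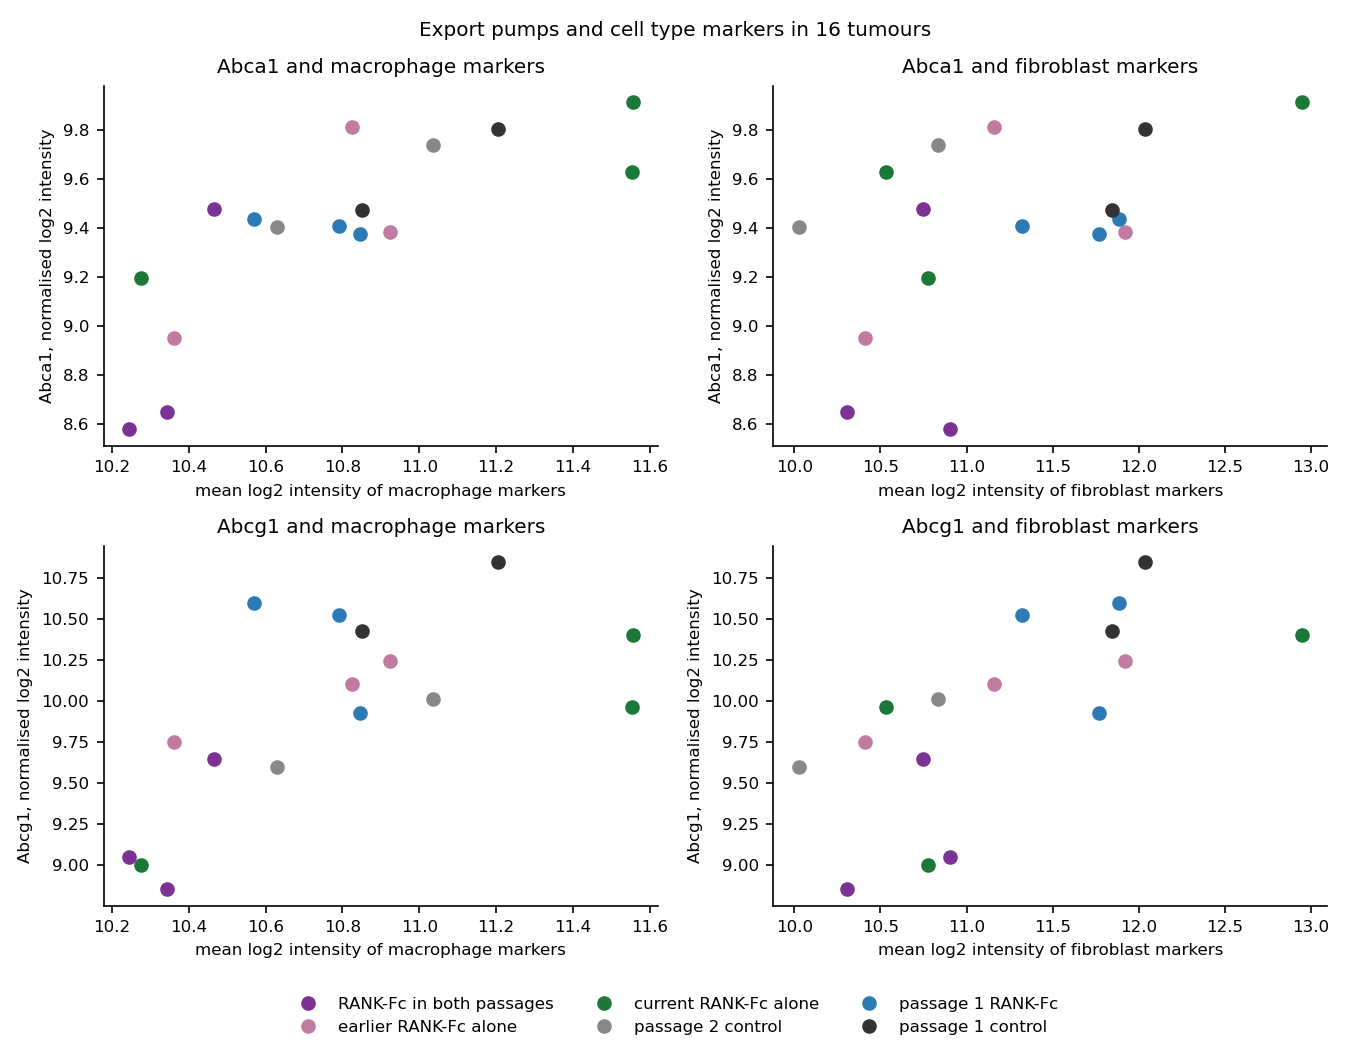
Log2 intensity of Abca1 and Abcg1 (vertical axes) against the mean log2 intensity of macrophage and fibroblast markers (horizontal axes), with 1 point for each of the 16 tumours, coloured by group. The replicate 1 and 3 points of RANK-Fc in both passages, at 8.65 and 8.58, are the lowest of Abca1, and their macrophage means are 10.34 and 10.24.

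The passages were compared as the mean of passage 2 minus passage 1 in controls and in tumours with current RANK-Fc and no earlier RANK-Fc. Passage moved many genes, 595 higher (4.21%) and 1114 lower (7.88%) of all tested, 12.1% together, and among the 30 members it moved 1. Mvd, which decarboxylates mevalonate diphosphate to isopentenyl diphosphate, was higher in passage 2. Its log2 intensity was 9.48, 9.58 and 9.56 with current RANK-Fc alone, against 9.14, 8.66 and 8.90 with RANK-Fc in passage 1. In controls it was 8.93 and 9.29 in passage 2, against 8.59 and 8.79 in passage 1. Neither pair of groups overlapped. The mean log2 difference was 0.52 ± 0.11 (SE), or 1.43-fold, with an adjusted p of 0.0122 in limma. Of 5 milk protein genes, 4 rose in the same comparison, and the median of the 5 was 1.90. All 7 measured adipocyte markers were lower, with a median of -1.20, and none passed the adjusted threshold. An unadjusted p under 0.05 was found for 4 of them, against 15.9% of all genes lower at that p. The part of milk secretion and of fat in the Mvd difference was not tested.

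The Mvd call was lost without passage 2 control replicate 2 (0.40, adjusted p = 0.0774), without passage 1 control replicate 1 (0.47, adjusted p = 0.0621) and with median centring (0.36, adjusted p = 0.0896). No other synthesis enzyme passed the test. Of the 19, 8 were positive and 11 negative with a median of -0.02, against -0.0058 over all genes, of which 48.9% were positive. Leaving out 1 tumour at a time gave 6 to 13 positive and medians from -0.11 to 0.03, so the list had no settled side. The 13 came without passage 1 control replicate 1 and the 6 without passage 1 control replicate 2, and the median was also above 0 without passage 2 control replicate 2 or passage 1 RANK-Fc replicate 1. With median centring, which moved the median of all genes to -0.12, 3 of 19 were positive and the median was -0.15.

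The next 3 members followed Mvd in p without passing. Ggps1 differed by -0.27 ± 0.09 (SE, adjusted p = 0.0701, limma), but its second probe gave 0.25, so its direction was unsettled. It passed without passage 1 control replicate 2 (-0.39, adjusted p = 0.021). Abcg1 differed by -0.71 ± 0.24 (adjusted p = 0.0786), with 10.02 and 9.60 in passage 2 controls, against 10.85 and 10.43 in passage 1 controls. It passed with median centring (-0.86, adjusted p = 0.0469), without current RANK-Fc alone replicate 3 (-0.86, adjusted p = 0.0251) and without passage 1 RANK-Fc replicate 1 (-0.87, adjusted p = 0.0471). Npc2 differed by 0.34 ± 0.15 (adjusted p = 0.162) and passed without current RANK-Fc alone replicate 1 (0.49, adjusted p = 0.019). For the fits in which Ggps1, Abcg1 or Npc2 passed, the share of all genes called is not given here. Fibroblast markers lay lower beside Abcg1: all 7 were lower in passage 2, with a median of -0.87. Of these 2 had an unadjusted p under 0.05, against 15.9% of all genes lower at that p, and 0 passed the adjusted one. The part of fibroblast content was not tested.

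Between controls alone, passage 2 minus passage 1 called 461 genes, 3.26% (0.899% higher and 2.36% lower), and none was a member. Without overlap, 3 members were higher (Mvd, Nsdhl and Scap) and 10 lower, against 20.7% and 27.4% of genes. The lower share lay near the background and the higher share below it. With the groups compared alone, Abcg1 passed there, and the share of all genes called in that fit is not given here.

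Other genes of the pathway were read from a separate list of 42, of which 37 were measured. With current RANK-Fc 24 of them were positive and 13 negative, against 52% positive of all genes, and 0 passed. The 2 with the smallest p were Cyb5b, a cytochrome b5, at 0.42 ± 0.07 (SE, adjusted p = 0.219, limma), and Msmo1. Msmo1, the sterol oxidase after Tm7sf2 and Lbr, differed by 0.43 ± 0.12 (adjusted p = 0.715). With earlier RANK-Fc 19 were positive and 18 negative, against 49.5% positive of all genes, and 0 passed. The 2 with the smallest p were Stard3, a late endosomal sterol carrier, at 0.92 ± 0.20 (0.0736), and Tmem97, a sterol-responsive membrane protein, at 0.41 ± 0.10 (0.0895).

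Between passages 2 of the 37 rose and 5 fell in passage 2 relative to passage 1, against 4.21% and 7.88% of all genes, so these counts lay near the background. Those that rose were Ch25h, which makes an oxysterol, by 0.71 ± 0.18 (SE, adjusted p = 0.0246, limma) and Abcg4, a sterol pump, by 0.60 ± 0.14 (0.0146). Those that fell were Stard3 (-0.85 ± 0.21, 0.0221), Gramd1c, which moves sterol from the plasma membrane to the endoplasmic reticulum (-0.61 ± 0.08, 0.000822), Mylip, a ligase that degrades lipoprotein receptors (-0.47 ± 0.13, 0.0405), Mbtps1, a protease that cuts the synthesis factors (-0.44 ± 0.13, 0.0436), and Lrpap1, a chaperone of such receptors (-0.27 ± 0.08, 0.0371). Gramd1c also fell between controls alone (-0.62 ± 0.13, adjusted p = 0.0237). Of 10 fatty acid genes, 9 were positive with current RANK-Fc with a median of 0.25 and 0 passed. In passage 2 relative to passage 1, 2 of the 10 rose: Thrsp, a lipogenic gene, by 0.85 ± 0.21 (0.0202) and Acaca, acetyl-CoA carboxylase, by 0.61 ± 0.16 (0.0282).

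How the members varied together was described over the 16 tumours, which share arrays, dyes and normalisation, with no test. Among synthesis enzymes, the Pearson r of a gene with the mean of the others was highest for Idi1 (0.89), Cyp51 (0.87), Mvk (0.84) and Tm7sf2 (0.84). It was lowest for Ggps1 (-0.01), Ebp (0.25), Dhcr7 (0.34) and Mvd (0.40), and the other members lay between. Outside the enzymes, Insig1 (0.82) and Stard4 (0.74) ran with the synthesis mean, and Abca1 (-0.68), Srebf1 (-0.59) and Abcg1 (-0.51) against it. Srebf2 had an r of 0.28 and Npc1 of -0.0017. Of genes outside the list, Avpi1 (0.93) and Uqcrq (0.89) were among those most like the synthesis mean over 16 tumours.

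Second probes gave a check within the arrays for 10 of the members. The others, among them Cyp51, Insig1, Sqle, Dhcr7, Mvd, Abca1 and Abcg1, had 1 passing probe each and no such check. Tm7sf2's second probe differed by 0.29 with current RANK-Fc, beside 0.38 for the probe used, Mvk's by 0.22 beside 0.34, Pmvk's by 0.24 beside 0.25 and Nsdhl's by 0.13 beside 0.21. Stard4's second probe gave 0.02 beside 0.21 with current RANK-Fc and 0.08 beside 0.40 with earlier RANK-Fc, so its differences rest on 1 probe. With earlier RANK-Fc the second probe turned the sign for Srebf2 (-0.13 beside 0.19), Hsd17b7 (-0.12 beside 0.02), Insig2 (-0.06 beside 0.07) and Ggps1 (-0.0087 beside 0.02), and for Ggps1 also with current RANK-Fc (0.0045 beside -0.06). Hsd17b7 and Ggps1 are among the 18 synthesis enzymes counted as positive with earlier RANK-Fc. Between passages it turned for Ggps1, Srebf2, Stard4, Nsdhl, Lbr and Tm7sf2. Fdft1 and Hmgcs1 each had a further probe that was above background in 0 tumours.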

How the data were processed

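Per the file headers, the authors' arrays were quantified in Agilent Feature Extraction 10.7.3.1. Those deposited files give the median intensity and local background intensity of each spot in both colours, on a linear scale. Processed intensity and the log10 ratio of red over green, deposited beside them, served as an alternative and a direction check. Spot marks (above background, uneven, outlying) are other deposited columns. Another table's 8 columns match no label and were not used here. Intensities were background corrected (normexp, offset 50), normalised by loess and Aquantile, and kept as log2 values computed from the deposited intensity. Between 239 and 337 uneven or outlying spots per array were set to missing and no spot was saturated. Between 47.5% and 56.5% of spots per channel were well above background, and the number of arrays limits the precision. All arrays shared 1 slide and scan time, so no such batch could be fitted.

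Probes were named through accessions and a RefSeq table (GRCm38.p6), for 28026 of 55681 probes. Probes had to be well above background in all tumours of some group, and each gene was represented by its brightest such probe. R 4.3.3 with limma 3.58.1 fitted the 16 channels with 6 group means and a dye term, weighting the channels of an array by the intraspot correlation, with 9 residual degrees of freedom. That correlation, estimated at 0.375, was corrected for bias by simulation to 0.198. Benjamini-Hochberg adjustment ran over 14131 genes. The fit was tested on simulated data. Relations with marker lists used 100000 permutations, two-sided, that shuffled all tumours without regard to group or array. Figures used matplotlib 3.10.9. The genes named are the 4 members with the smallest p in each of 3 averaged comparisons and any past the threshold, with others for context. The members and lists were chosen with earlier results of these data known.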

Additional observations from a re-analysis of the deposited data

How the results depend on the processing

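Across 12 other settings (background, normalization, filter, probe choice, dye term, prior variance, intraspot correlation and groups compared alone, the last not applicable to the mean of current RANK-Fc) and 16 fits that each left out 1 tumour, members past the threshold stayed at 0 with earlier RANK-Fc, with current RANK-Fc in passage 1 and in passage 2 without earlier RANK-Fc, with earlier RANK-Fc alone, and in both tests of a difference of effects. Leaving out 1 tumour gave 0 to 2 for the mean of current RANK-Fc, for current RANK-Fc after earlier RANK-Fc, for RANK-Fc in both passages and for passage. The 2 came without RANK-Fc in both passages replicate 2 in the first 3 of these, and were Cyp51 and Insig1. For passage, it was 0 without passage 2 control replicate 2 or passage 1 control replicate 1. For RANK-Fc in both passages the count was 1 with the uncorrected intraspot correlation (Cyp51). For passage 2 against passage 1 controls it was 1 with the groups compared alone (Abcg1). The share of all genes called in these other fits is not given here. Median centring moved the median of all genes to 0.15 for earlier RANK-Fc, to -0.12 for passage and to 0.025 for current RANK-Fc. Under the 4 other scalings, 16 to 18 of 19 synthesis enzymes were positive with current RANK-Fc, with medians from 0.22 to 0.28. The 1 member difference past the threshold, Mvd between passages, kept its sign in all of these fits. Mean differences of a role that lay near 0 changed sign: between passages with the mean of probes (mevalonate branch 0.02, regulators 0.02, transport 0.04), with quantile normalization (sterol branch 0.0002, transport 0.01) and with processed signals (sterol branch 0.0077), and for transport with earlier RANK-Fc with the mean of probes (-0.0024). No paired analysis was possible because replicate numbers follow accession order and the labels tie no tumours across groups.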
